A study of Mus musculus with 48 samples.

Results

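Livers of mice that lack LXRα on both alleles (KO:HOM, 8 livers) were compared with livers of wild-type mice of the same breeding (KO:WT, 8 livers). These 16 livers were chosen by their genotype label from the 48 livers of the series. The 8 heterozygous livers of the knockout study (KO:HET) shared the estimate of the spread, so 24 livers entered the fit. All mice were labelled C57Bl/6J and came from crosses of heterozygous parents. They ate a western diet for 8 weeks, from 8 to 16 weeks of age. The deletion is present in every tissue of the mouse, so an effect on hepatocytes and one on blood-derived cells cannot be told apart. Per the methods of the study, C57BL/6 mice served for over 10 generations of backcrossing of this line, whose founders were part Sv129. The comparison asks which liver transcripts differ on this diet when LXRα is absent.

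LXRα, encoded by Nr1h3, is a nuclear receptor that is switched on by oxidised cholesterol and binds DNA as a partner of RXR. In hepatocytes it drives sterol export into bile and fatty acid synthesis, and in macrophages it drives cholesterol efflux and restrains inflammatory genes. Kupffer cells, the resident macrophages of the liver, depend on it for part of their identity.

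Reads on genes lay between 14024817 and 16803733 in KO:WT livers and between 5376226 and 16961379 in KO:HOM livers, where animal 17 was the shallowest. Unmapped reads made up at most 8.66% of a KO:HOM library and up to 13.8% of a KO:WT library, with 3 KO:WT livers above 9%. Levels are given as CPM, reads of a gene as a rate per 1e+06 reads on tested genes after TMM scaling, which adjusts for a few abundant genes. Labels were checked on the targeted gene. Nr1h3 (ENSMUSG00000002108, chromosome 2 of GRCm39 from 91014394 to 91033417) ranged from 76.4 to 102 CPM in KO:WT livers and from 23.4 to 29.4 CPM in KO:HOM livers. The groups did not overlap, and an exact two-sided permutation test gave p = 0.000155, the smallest that 8 livers against 8 allow. Counts per gene do not show which exons the remaining reads cover. Nr1h2, which encodes the related receptor LXRβ, had 32 ± 3.41 CPM (SD, n = 8) in KO:WT and 33.3 ± 3.31 CPM (SD, n = 8) in KO:HOM livers.

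Of 14296 genes tested, 2410 (16.9%) differed at an adjusted p under 0.05 (quasi-likelihood test of edgeR, Benjamini-Hochberg adjustment). Higher levels in KO:HOM livers were called for 1520 genes (10.6%) and lower levels for 890 genes (6.23%). Without KO:WT animal 34 or 33 the number of genes lower in KO:HOM livers was 560 or 573. The rises were larger than the falls. Genes called higher had a median log2 fold change of 1.14, and 834 of them changed by at least 1 on the log2 scale. Genes called lower had a median of -0.36, and 114 of them reached that size, while the median over all genes tested was -0.02. The share of genes called lower was larger among abundant transcripts and the share called higher among scarce ones. Summed over the called genes, the group means fell by 78189.9 CPM and rose by 34512.5 CPM. Among genes with a mean of 1 to 10 CPM, 16.6% were called higher and 2.94% lower. Among genes at 100 to 1000 CPM these shares were 5.24% and 16.6%, and among the 126 genes at 1000 CPM or more they were 7.14% and 20.6%. TMM scaling factors moved with genotype, from 0.927 to 1.03 in KO:WT and from 1.01 to 1.09 in KO:HOM livers. With library size alone as the scale, 2188 genes were called higher and 329 lower, and the median of all genes moved by 0.107.

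**Figure D1:**
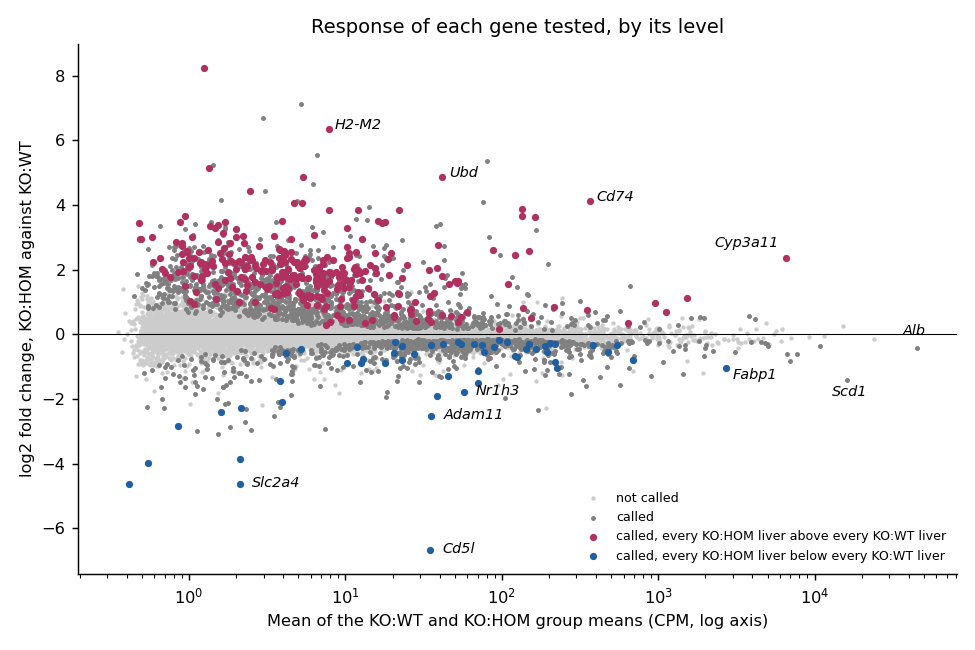
Each point is one of 14296 genes, placed by its mean level (CPM, log axis) and its log2 fold change in KO:HOM against KO:WT livers, with coloured points for called genes whose groups do not overlap. The 318 red points gather at low levels and reach 1.89 at their median, and the 54 blue points lie closer to 0 and at higher levels.

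**Figure D2:**
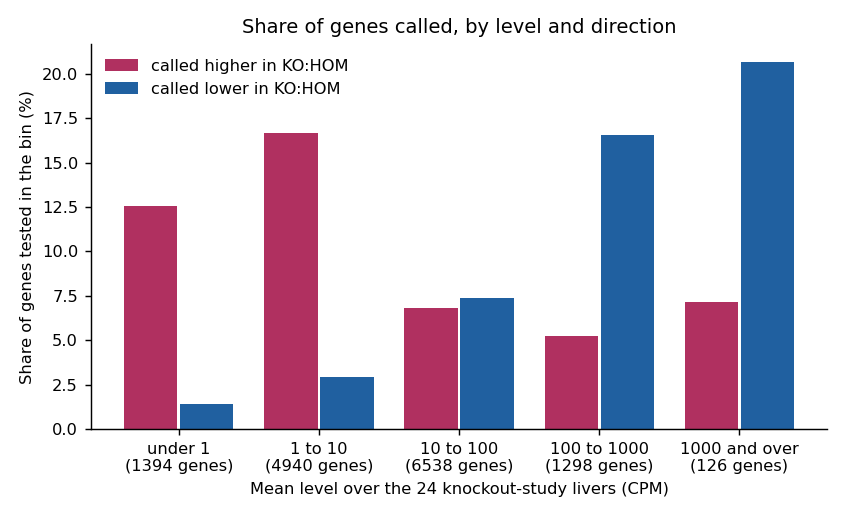
Bars give the percentage of genes tested in each bin of mean level (CPM over 24 livers) that were called higher (red) or lower (blue) in KO:HOM livers. The higher share is largest at 1 to 10 CPM (16.6%) and the lower share at 1000 CPM or more (20.6%).

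For 372 called genes (2.6%) every KO:HOM liver lay on the same side of every KO:WT liver. These were 318 higher genes (2.22%) and 54 lower genes (0.378%). Of the 318, 275 rose by at least 1 on the log2 scale, and 18 of the 54 fell by as much. Their median levels also differed. The higher genes had a median of 2.39 CPM in KO:WT and 8.21 CPM in KO:HOM livers, and the lower genes had 62.6 and 34 CPM. Of the 318 genes, 32 stood in the hand-written immune lists described here and 3 in the hepatocyte lists. Of the 54, 3 stood in immune lists, 1 in a hepatocyte list and 4 in other lists. Leaving out KO:HOM animal 22 raised the count to 583.

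The largest rise of this kind among genes with a mean log2 CPM above 1 was that of H2-M2, a nonclassical class I histocompatibility gene. It lay between 0 and 0.489 CPM in KO:WT livers and between 10.6 and 29.7 CPM in KO:HOM livers, with medians of 0.0971 and 11.8 CPM. Its log2 fold change was 6.37 (SE 0.62, Benjamini-Hochberg adjusted p = 4.0e-07 by edgeR). Ubd, which encodes a ubiquitin-like modifier induced by inflammatory cytokines, had a median of 2.03 CPM in KO:WT (0.651 to 6.17) and 89.6 CPM in KO:HOM livers (16.8 to 143). Socs1, an inhibitor of cytokine receptor signalling, rose from a median of 0.167 CPM (0 to 0.575) to 5.12 CPM (0.759 to 10.3), a log2 fold change of 4.42. The other genes among the 20 largest rises were Lrtm2, 7 MHC class II genes, Slamf7, Slamf8, Gpnmb, Ccl5, Dram1, Gbp8, Itgax, Sema4d and Ms4a7, with log2 fold changes between 3.04 and 4.85.

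Lower genes without overlap were of several kinds. Adam11, of the family of membrane metalloproteinases, had a median of 56.2 CPM in KO:WT (36.2 to 89.5) and 9.54 CPM in KO:HOM livers (4.53 to 16.4), and fell by 2.52 on the log2 scale. Srd5a1, a steroid reductase, went from a median of 103 CPM (77.5 to 128) to 32.8 CPM (24.6 to 60.5). Fabp1, the abundant fatty acid-binding protein of hepatocytes, ranged from 2958 to 4292 CPM in KO:WT and from 1170 to 2201 CPM in KO:HOM livers. Its log2 fold change was -1.04 (SE 0.12, Benjamini-Hochberg adjusted p = 5.9e-06 by edgeR). Scarce genes fell too. Slc2a4, the insulin-responsive glucose transporter, dropped from a median of 3.30 CPM to 0.121 CPM, and Kcna2, a potassium channel, from 2.55 to 0.237 CPM. The smaller falls included Gpat4, which starts glycerolipid synthesis (280 ± 79.6 to 155 ± 13 CPM, SD, n = 8), Inmt, a methyltransferase (877 ± 123 to 505 ± 86.6 CPM), and Klb, the co-receptor for FGF21 (29.3 ± 5.82 to 17 ± 3.12 CPM).

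**Figure D3:**
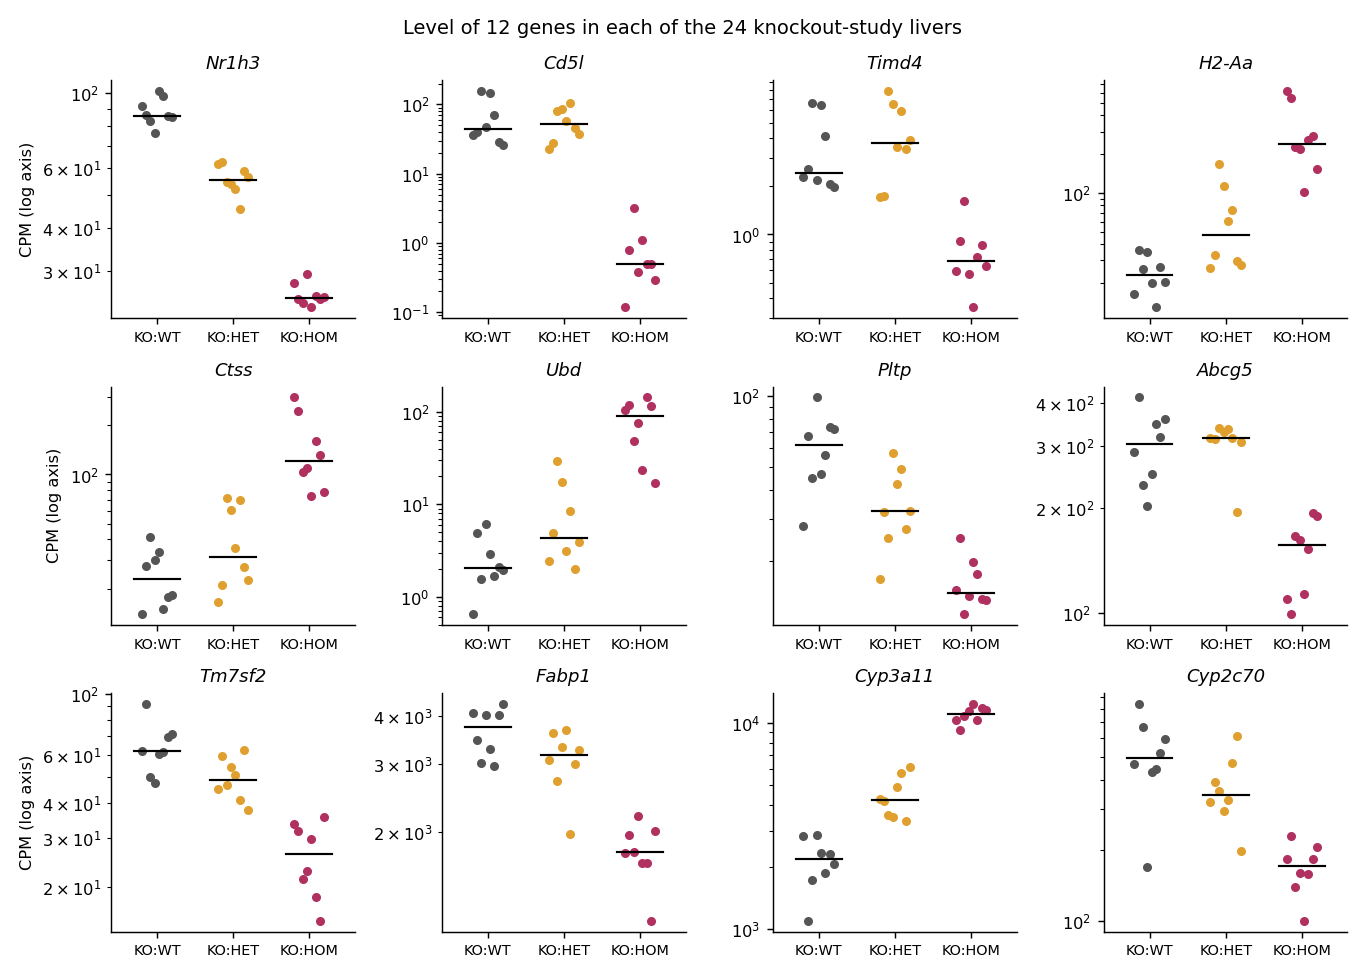
Each point is the level of a gene in one liver (CPM, log axis) for KO:WT, KO:HET and KO:HOM, with 8 livers a group and a line at the group median. KO:WT and KO:HOM do not overlap in 11 of the 12 genes. For Cyp2c70 1 KO:WT liver at 170 CPM lies within the KO:HOM range.

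The immune genes were described by 15 lists of 176 genes, of which 144 passed the filter on low counts. In KO:HOM livers 98 of the 144 rose (68.1%, against 10.6% of all genes), 6 fell (4.17%, against 6.23%) and 40 did not pass the test. Their median log2 fold change was 1.5. In 35 of the 144 the groups did not overlap, against 2.6% of all genes. The lists were written with earlier results of these livers known. A gene that is scarce in KO:WT livers could pass the filter through its KO:HOM values alone, so the shares among tested genes describe the genes that passed and are no support for a rise of the lists. In whole tissue, more cells of a type and more RNA per cell cannot be told apart.

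MHC class II genes, which present peptides to CD4 T cells, moved the most. All 9 that passed the filter rose (10.6% of all genes did), 7 without overlap (against 2.6%), with a median of 3.64. H2-Eb2 and H2-Oa were too low to be tested. H2-Aa, the α chain of I-A, had a median of 23 CPM in KO:WT (12.9 to 36.3) and 242 CPM in KO:HOM livers (102 to 624). Its log2 fold change was 3.64 (SE 0.42, Benjamini-Hochberg adjusted p = 4.6e-06 by edgeR). Ciita, the coactivator that class II promoters require, had a median of 1.28 CPM in KO:WT (0.544 to 3.39) and 24.7 CPM in KO:HOM livers (4.61 to 35.7). The lowest KO:HOM values of Ciita and H2-Aa were still above every KO:WT value. H2-DMa and H2-DMb1, which load peptides, rose by 3.49 and 3.52. H2-DMb2 rose by 2.35 and H2-Ob by 1.08, both with overlap. H2-Aa and H2-Eb1 lie on opposite strands, which the counts keep apart. The class I list, with the peptide transporter and the immunoproteasome, rose in all 11 members (against 10.6% of all genes), with a median of 0.96. Its levels were high to begin with, as for B2m, the light chain of class I molecules, which went from 1516 ± 177 CPM (SD, n = 8) to 2186 ± 263 CPM (SD, n = 8).

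Class II genes move together and share promoter letters, which is why 4 of their promoters are shown. The sequences are RefSeq's (GRCm38.p6) and were placed in GRCm39 by exact match. Each is a stretch of the 250 bases before the gene's start, read 5′ to 3′ in the direction of the gene. Capitals mark ATTGG, the reverse complement of CCAAT, which is the core of the Y box bound by NF-Y.
H2-Aa (chr17:34506801-34506885, minus strand): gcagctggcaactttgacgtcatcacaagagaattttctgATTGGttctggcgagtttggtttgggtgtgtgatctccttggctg
H2-Eb1 (chr17:34524742-34524826, plus strand): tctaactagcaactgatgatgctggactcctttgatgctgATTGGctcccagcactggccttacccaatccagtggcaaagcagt
H2-DMb1 (chr17:34372064-34372148, plus strand): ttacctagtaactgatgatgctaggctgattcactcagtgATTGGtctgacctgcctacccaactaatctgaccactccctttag
H2-DMb2 (chr17:34364093-34364177, plus strand): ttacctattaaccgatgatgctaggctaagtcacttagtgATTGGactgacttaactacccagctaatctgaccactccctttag

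The capitals begin 48, 59, 61 and 90 bases before the start in these genes, and in H2-DMa, not shown, ATTGG begins 198 bases before it. CCAAT or ATTGG was searched on both strands from 250 bases before to 50 after the start. It was found in all 8 class II promoters searched, of 11 members of the list. Cd74, on chromosome 18, was left out of the search, and H2-Ab1 and Ciita had no promoter sequence. Of the 27025 genes that had a promoter sequence 41.1% held it. Class I promoters held it in 7 of 9 searched, of 11 members. A match describes the letters and says nothing of binding in these livers.

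General macrophage markers rose, and markers of resident Kupffer cells were split. All 12 macrophage genes were higher in KO:HOM livers (against 10.6% of all genes), 7 without overlap (against 2.6%), with a median of 1.68. Ctss, a lysosomal protease, had a median of 22.8 CPM in KO:WT (13.9 to 41.3) and 121 CPM in KO:HOM livers (74.0 to 297), a log2 fold change of 2.61. Lyz2, lysozyme, rose by 2.58, and the complement genes C1qa and C1qb by 1.66 and 1.59. The smallest rise was that of Adgre1 (0.88, Benjamini-Hochberg adjusted p = 0.044 by edgeR), which was called in 14 of 26 alternatives, with adjusted p between 0.013 and 0.12. Of the 11 Kupffer genes 5 fell (45.5%, against 6.23% of all genes) and 2 rose (Spic and Il18bp, 18.2%, against 10.6%). The other 4 did not pass the test, and the median of the list was -0.30.

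Cd5l, a protein that macrophages secrete and a known LXR target, had a median of 43.6 CPM in KO:WT (26.2 to 159) and 0.495 CPM in KO:HOM livers (0.118 to 3.24). It fell by 6.67 on the log2 scale (SE 0.57, Benjamini-Hochberg adjusted p = 3.4e-08 by edgeR), the largest fall among the genes named here. Timd4, a receptor for dying cells, dropped from a median of 2.42 CPM (1.97 to 6.65) to 0.680 CPM (0.35 to 1.62), and Cd163, the haemoglobin scavenger receptor, from 5.76 CPM (2.88 to 11.4) to 1.02 CPM (0.409 to 2.82). The groups did not overlap for these 3 genes. Clec4f, the lectin that defines mouse Kupffer cells, fell by 1.17 with overlap, from a median of 38.8 CPM (23.4 to 90.2) to 21.5 CPM (7.26 to 38.4). Folr2 fell by 2.08, with a Benjamini-Hochberg adjusted p of 0.18 by edgeR on unstranded counts and at most 0.05 in the other 25 alternatives. Marco, Vsig4, Clec1b and Slc40a1 did not pass the test, with log2 fold changes of -0.30, -0.26, 0.19 and 0.23. So the summed level of the Kupffer list overlapped between groups, at 193 to 473 CPM in KO:WT and 163 to 279 CPM in KO:HOM livers, while that of the macrophage list did not, at 190 to 447 CPM and 523 to 1967 CPM. The highest KO:WT values of both lists, and of Cd5l (159 and 144 CPM), came from animals 14 and 31, whose libraries had the most unmapped reads (11.7% and 13.8%). The other 6 KO:WT livers lay at 193 to 307 CPM for the Kupffer list. The alternative without livers above 9% unmapped left out 3 KO:WT livers and KO:HET animal 15. In it Cd5l, Timd4, Cd163 and Clec4f were still called lower, with log2 fold changes of -5.98, -1.83, -2.31 and -0.84.

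Genes of lipid-associated macrophages, the foamy cells of injured tissue, rose in 7 of 11 (63.6%, against 10.6% of all genes). Gpnmb had a median of 0.823 CPM in KO:WT (0.195 to 8.67) and 39.7 CPM in KO:HOM livers (16.2 to 73.4), and Itgax, which encodes CD11c, had 1.82 CPM (0.911 to 3.51) and 15.4 CPM (9.18 to 30.9). Both were without overlap. Lgals3, Cd63, Mmp12, Trem2 and Spp1 rose by 1.43 to 2.15, whereas Cd9 (0.00), Fabp5 (-0.08), Ctsd (0.27) and Lpl (0.28) did not pass the test. Trem2 was called in 15 of 26 alternatives. Among monocyte genes 5 of 6 rose (83.3%, against the same 10.6%), with Itgam, Ly6c2 and Ccr2 at 2.58, 2.58 and 2.11. Among dendritic cell genes 5 of 7 rose (71.4%), led by Irf8 (1.88).

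Lymphocyte genes were scarce, and those of T cells rose while those of B cells did not pass the test. Of 9 T cell genes tested 8 rose (88.9%, against 10.6% of all genes), with a median of 2.28. Trac, the constant region of the T cell receptor α chain, had a median of 0.261 CPM in KO:WT (0.0651 to 0.767) and 1.61 CPM in KO:HOM livers (0.817 to 2.76). Lck, the kinase that acts next to that receptor, rose from 0.335 CPM (0.244 to 0.912) to 2.20 CPM (0.934 to 3.82). Both were without overlap (against 2.6% of all genes), at levels near the filter on low counts. Of 10 genes of cytotoxic and NK cells 8 were too low to test. The other two, Nkg7 and Klrd1, had 0.330 ± 0.396 and 0.209 ± 0.137 CPM (SD, n = 8) in KO:WT and 2.01 ± 1.01 and 1.09 ± 0.418 CPM (SD, n = 8) in KO:HOM livers. Of 8 genes of B and plasma cells 0 were called by edgeR, 0 had an unadjusted p under 0.05 and DESeq2 called 1. Their median was 0.24, and Ighm had 16.3 ± 18.7 CPM (SD, n = 8) in KO:WT and 21.3 ± 15.1 CPM (SD, n = 8) in KO:HOM livers. Neutrophil genes were mostly too low to test, and Csf3r and S100a8 rose by 2.32 and 2.12.

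Chemokines and receptors of innate immunity rose in most members. Of 15 chemokines 10 were higher (66.7%, against 10.6% of all genes) and 1 was lower (6.67%, against 6.23%). The lower gene, Ccl24, fell by 1.86 on the log2 scale. Ccl5 had a median of 0.947 CPM in KO:WT (0.325 to 2.11) and 6.83 CPM in KO:HOM livers (2.69 to 48.3). Cxcl9, a chemokine induced by interferon γ, rose by 3.02 from a median of 13.2 CPM (6.83 to 62.2) to 156 CPM (13.3 to 244), with overlap. Of 17 genes of Toll-like receptors and the inflammasome 12 rose (70.6%, against 10.6% of all genes). Pycard, Tlr1, Tlr8 and Casp1 were without overlap, against 2.6% of all genes. The 7 SLAM receptors tested all rose (against 10.6% of all genes), with a median of 2.31. Slamf7 and Slamf8 rose by 4.06 and 4.05.

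Genes stimulated by interferon rose in 6 of 16 (37.5%, against 10.6% of all genes), with a median of 0.56. None was without overlap, against 2.6% of all genes. Gbp2 (3.43) and Gbp3 (2.23) were among the 6. Of the 16 genes 15 had a positive log2 fold change. Oasl2, Ifit2 and Ifit3 rose by 1.48, 1.31 and 0.70, whereas Isg15 (0.30), Mx1 (0.60), Ifit1 (0.39), Irf7 (0.20) and Rsad2 (-0.22) did not pass the test.

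**Figure D4:**
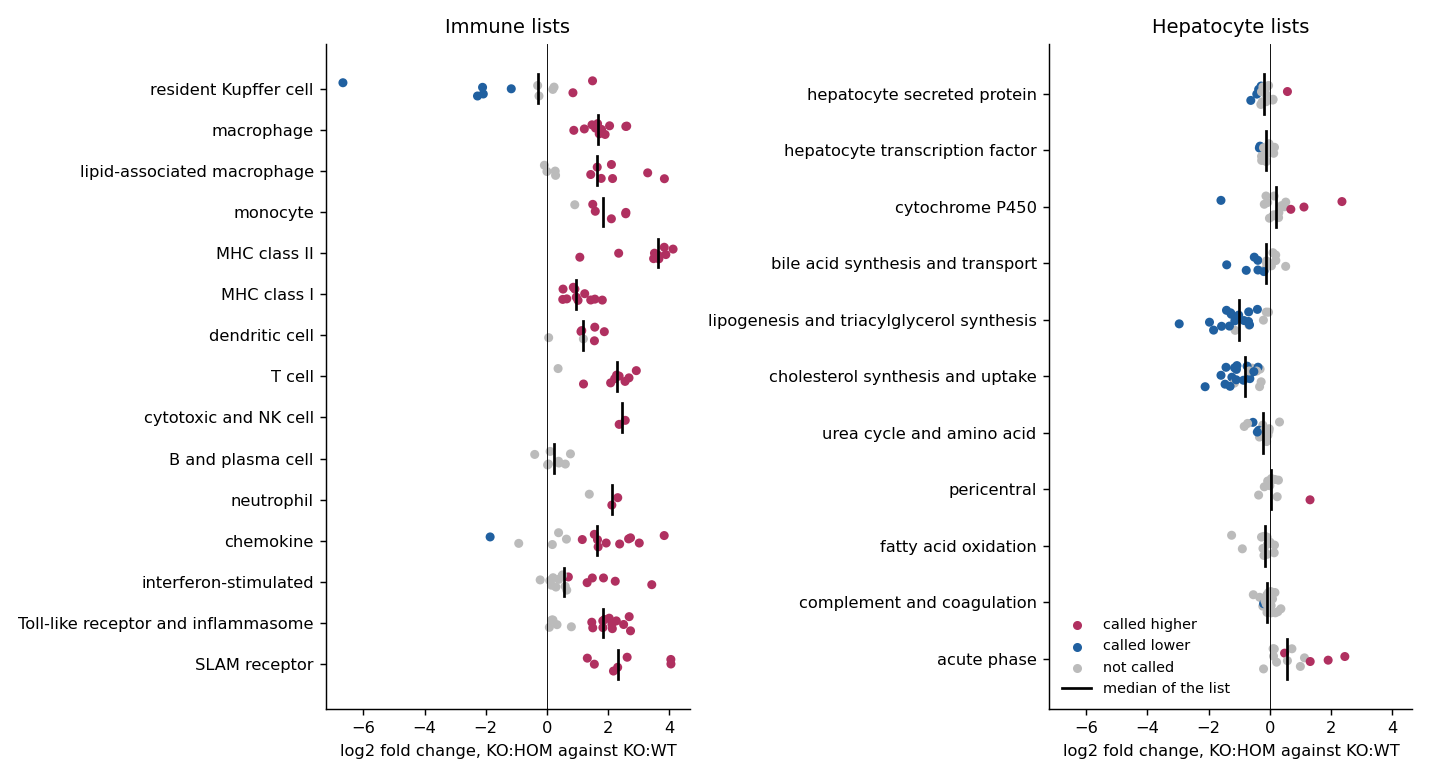
Each point is the log2 fold change (KO:HOM against KO:WT) of a tested gene of an immune list (left) or a hepatocyte list (right), red where called higher, blue where called lower and grey where not called, with a bar at the median of the list. Immune medians lie between -0.30 and 3.64, and hepatocyte medians between -1.02 and 0.58.

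KO:HOM livers differed among themselves in the immune lists. By mean log2 CPM animal 8 had the highest class II, macrophage and T cell levels and animal 22 the lowest. The mean log2 CPM of class II genes was 6.51 in animal 8 and 4.03 in animal 22, against 1.64 to 3.12 in KO:WT livers. Even animal 22 thus lay above every KO:WT liver. Summed T cell genes overlapped between groups by a small margin, at 2.84 to 9.14 CPM in KO:WT, where animal 5 was the highest, and 9.11 to 35.9 CPM in KO:HOM livers.

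**Figure D5:**
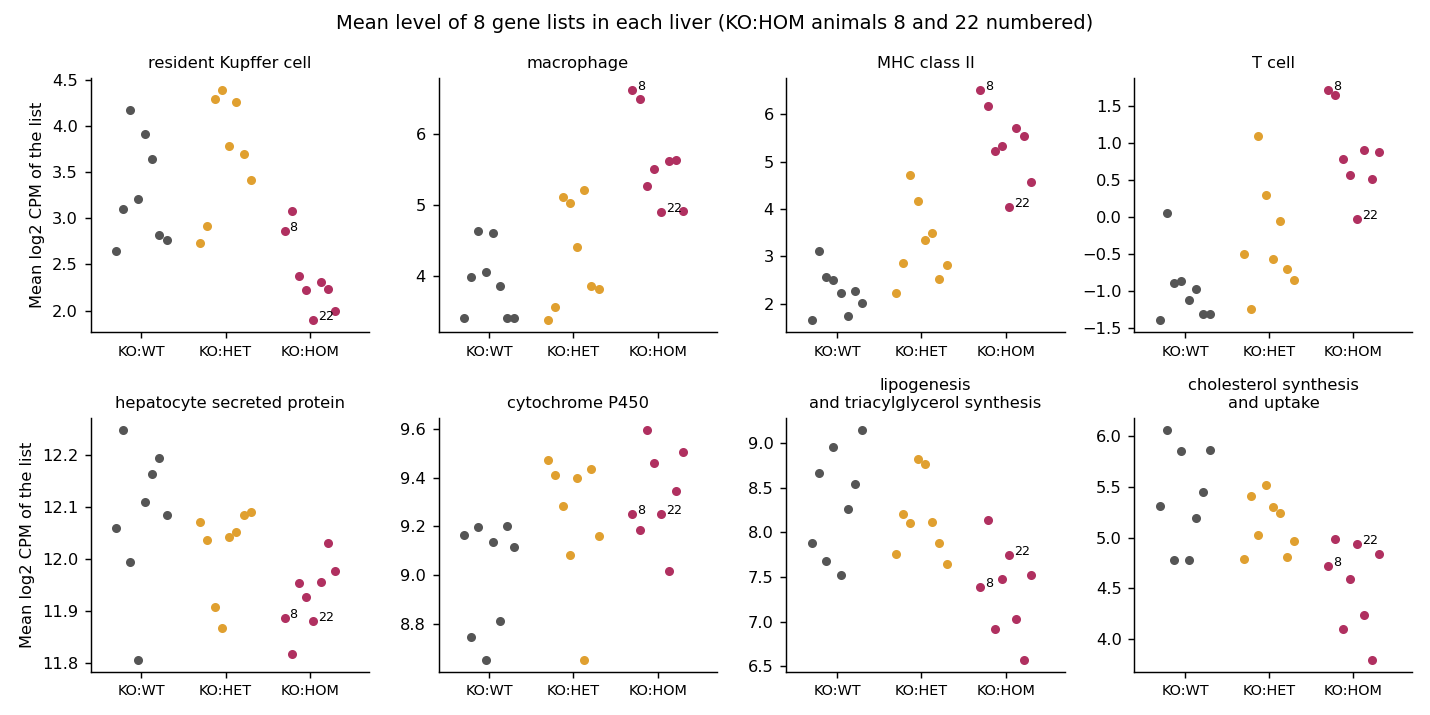
Each point is the mean log2 CPM over the genes of a list in one liver, for KO:WT, KO:HET and KO:HOM. The macrophage and MHC class II lists are higher in all 8 KO:HOM livers than in every KO:WT liver, while the lists of hepatocyte genes overlap between those groups.

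Hepatocyte genes were described by 11 lists of 174 genes, all of them tested. In KO:HOM livers 50 fell (28.7%, against 6.23% of all genes), 9 rose (5.17%, against 10.6%) and 115 did not pass the test. Abundant genes of any kind were called lower more often, 16.6% of those at 100 to 1000 CPM and 20.6% at 1000 CPM or more. For abundant hepatocyte genes these shares are the closer background. Their median was -0.16. For 4 of the 174 the groups did not overlap, near the 2.6% of all genes. The lists of lipogenesis and of cholesterol genes held 33 of the 50 falls. Without KO:WT animal 34 the number of falls was 33, and an adjusted p under 0.01 left 20. The summed level of the macrophage list moved in the other direction in the same livers, as given above, and its part in these falls was not tested.

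Genes of lipogenesis and triacylglycerol synthesis fell in 16 of 21 (76.2%) and cholesterol genes in 17 of 24 (70.8%), against 6.23% of all genes. Their medians were -1.02 and -0.80. No member of either list rose, by edgeR at an unadjusted p under 0.05 or by DESeq2. Pnpla3, a lipid hydrolase gene, fell by 2.96 and Acacb, which makes malonyl-CoA at mitochondria, by 1.97. Fads1, a fatty acid desaturase, fell by 1.32 from a median of 657 CPM (270 to 952) to 240 CPM (68.3 to 443), and Me1, which supplies NADPH, by 1.26. All of these overlapped between groups. The lipogenesis list summed to between 11419 and 61996 CPM in KO:WT and between 5745 and 29552 CPM in KO:HOM livers. Acacb had a Benjamini-Hochberg adjusted p of 0.058 by edgeR without KO:WT animal 34.

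Cholesterol genes were less spread. Tm7sf2, a sterol reductase, was the only one without overlap, from a median of 61.7 CPM (47.6 to 91.5) to 26.2 CPM (15 to 35.6), a log2 fold change of -1.30 (SE 0.16, Benjamini-Hochberg adjusted p = 9.6e-06 by edgeR). Cyp51, the sterol demethylase, fell by 1.46 from 43.8 CPM (22.2 to 61.7) to 15.5 CPM (8.52 to 23.5). Fdps and Idi1, which make isoprenoid precursors, fell by 2.11 and 1.60. Srebf2, the regulator of the pathway, did not pass the test (-0.28). Stard4, a cytosolic sterol carrier outside the list, fell without overlap, from 97.6 ± 15.8 CPM (SD, n = 8) to 44.1 ± 16.2 CPM (SD, n = 8).

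Of 16 cytochrome P450 genes 3 rose (18.8%, against 10.6% of all genes) and 1 fell (6.25%, against 6.23%). Cyp3a11, a major drug-metabolising enzyme that PXR induces, had a median of 2190 CPM in KO:WT (1097 to 2870) and 11077 CPM in KO:HOM livers (9233 to 12310). Its log2 fold change was 2.36 (SE 0.16, Benjamini-Hochberg adjusted p = 6.0e-10 by edgeR), the highest level among genes that rose. KO:HET livers lay between, at 3353 to 6091 CPM. It was 1 of 3 genes called between KO:HET and KO:WT, with Nr1h3 and Apol7e, where 819 genes had an unadjusted p under 0.05. Cyp2a5 (970 ± 243 to 2105 ± 644 CPM, SD, n = 8) and Cyp3a25 (854 ± 150 to 1375 ± 144 CPM) rose, also without overlap. Cyp2c70, which makes muricholic acids, fell by 1.60 from 516 ± 195 CPM (SD, n = 8) to 171 ± 40.5 CPM (SD, n = 8). The other 12 did not pass the test, among them Cyp2e1 (-0.07) and Cyp1a2 (-0.18). Reads of near-identical family members, such as those of Cyp3a11 and Cyp2a5, may be divided uncertainly.

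Of 15 genes of bile acid synthesis and transport 6 fell (40%, against 6.23% of all genes) and 0 rose (0 at an unadjusted p under 0.05 by edgeR and 0 by DESeq2). Cyp7a1, the rate-limiting enzyme, had 205 ± 63.8 CPM (SD, n = 8) in KO:WT and 120 ± 32.2 CPM (SD, n = 8) in KO:HOM livers, a log2 fold change of -0.77. Slc10a1 and Abcb11, which carry bile acids into and out of the hepatocyte, fell by 0.51 and 0.39. Cyp8b1 (0.52) and Baat (0.10) did not pass the test. Of 16 secreted proteins 4 fell (25%, against 6.23% of all genes) and 1 rose (6.25%, against 10.6%). These shares are near those of all genes at 1000 CPM or more, of which 20.6% were called lower and 7.14% higher. Alb had 52121 ± 6060 CPM (SD, n = 8) in KO:WT and 38818 ± 6484 CPM (SD, n = 8) in KO:HOM livers, and Apoa1 fell by 0.62. Hpx rose by 0.58, and Lcn2, Orm2, Orm3 and Hp of the acute phase rose by 0.48 to 2.45, while Saa1 (1.13) and Saa2 (1.0) did not pass the test. Without TMM scaling, the list of secreted proteins took 11.4 ± 0.747% (SD, n = 8) of reads on tested genes in KO:WT and 10.2 ± 0.502% (SD, n = 8) in KO:HOM livers. The class II list took 0.0106 ± 0.00378% and 0.168 ± 0.0990% of those reads.

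Other functions of hepatocytes held fewer calls. These are counts of 0 to 3 genes a list, to be read against 6.23% of all genes called lower and 10.6% higher. Among abundant genes the share called lower was larger, as given above. Of 14 transcription factors Cebpa and Hnf4a were called lower, by 0.32 and 0.34, and Hnf4a was called in 13 of 26 alternatives. In the list of the urea cycle and amino acids 3 of 13 genes fell, with a median of -0.23 over the list, and Cps1 and Hpd fell by 0.55 and 0.41. Of 21 complement and coagulation genes 1 was called lower (Serpinc1, 4.76% of the list). Of 14 genes of fatty acid oxidation 0 were called by edgeR or DESeq2, with 5 lower at an unadjusted p under 0.05. Pericentral genes such as Glul (0.05) and Axin2 (0.17) did not pass the test, and 1 of 9 in that list rose (Rhbg, 11.1%).

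Of 15 known LXR targets 7 fell (46.7%, against 6.23% of all genes) and 3 rose (20%, against 10.6%). The list was written with earlier results of these livers known. It shares Cyp7a1 with the bile acid list and Lpl with the list of lipid-associated macrophages, so these list counts are not separate observations. Pltp, the phospholipid transfer protein, had a median of 61.8 CPM in KO:WT (28 to 98.6) and 14.6 CPM in KO:HOM livers (11.9 to 25), a log2 fold change of -1.89 (SE 0.24, Benjamini-Hochberg adjusted p = 1.0e-05 by edgeR). Abcg5, which exports sterols into bile together with Abcg8, had 304 CPM (202 to 415) and 157 CPM (99.0 to 193). Pltp and Abcg5 were without overlap, and Abcg8 fell by 0.86 with overlap. Mlxipl, Srebf1, Cyp7a1 and Scd1 made up the other falls, of which Scd1 was called in 12 of 26 alternatives. The efflux transporters Abca1 and Abcg1, which macrophages also express, rose by 0.25 and 1.38, and Smpdl3a, a phosphodiesterase, by 0.28. Apoe (0.27), Lpcat3 (-0.02), Mylip (0.27), Lpl and Apoc1 (-0.21) did not pass the test. Among receptors and corepressors Rxrb fell by 0.21, and Rxra (-0.12), Rxrg and Ncor1 did not pass it.

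Markers of other liver cells moved less than those of macrophages. Stellate cell and fibroblast genes rose in 6 of 13 (46.2%, against 10.6% of all genes), with a median of 0.70. The calls in the endothelial, cholangiocyte, proliferation and erythroid lists are 1 to 3 genes a list, against 10.6% of all genes higher and 6.23% lower, and nothing is read from those counts. Dcn, a matrix proteoglycan, went from 124 ± 27 CPM (SD, n = 8) to 192 ± 38.6 CPM (SD, n = 8), and Timp1 and Lum rose by 2.21 and 1.06. Col1a1 (1.04), Col3a1 (0.70) and Acta2 (-0.02) did not pass the test. Among endothelial genes Stab2 and Fcgr2b were higher by 0.53 and 0.46, and 9 of 12 were not called. Cdh5, the cadherin of endothelial junctions, was lower without overlap (13.2 ± 1.17 to 7.12 ± 1.82 CPM, SD, n = 8). Summed over its 12 genes the endothelial list lay at 197 to 280 CPM in KO:WT and 215 to 327 CPM in KO:HOM livers. Only Spp1 of 7 cholangiocyte genes rose, and it was also counted among the genes of lipid-associated macrophages. Of 10 proliferation genes Mki67 rose (1.69) and Rrm2 fell by 0.98. Erythroid genes, a sign of residual blood, held 1 fall among 5 (Alas2).

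The surroundings of Nr1h3 on chromosome 2 were examined because the allele was made on a mixed background. Apart from Nr1h3, 4 of 51 genes within 5 Mb were higher (7.84%) and 5 lower (9.80%), against 10.7% and 6.22% on the other chromosomes. The largest change there was that of Spi1, the macrophage factor PU.1, which rose by 1.49 without overlap. Mtch2, Atg13, Ambra1, Ttc17 and 2810002D19Rik fell by 0.18 to 0.63, and Madd, Ckap5 and Accs rose by 0.22 to 0.59.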

How the data were processed

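The authors made stranded mRNA libraries from liver RNA, aligned the reads with STAR 2.5.0a to GRCm39 (per the labels) and deposited counts of reads per gene for 55416 genes, without normalization. The counts of the gene's strand were used, which exceeded the other strand by 7.23 to 8.46 times in these 24 livers. Reads that named no gene made up 24.0% to 33.0% and were left out. Of the identifiers 54749 (98.8%) were found in GENCODE vM39, a later release than the alignment used. No 2 livers held identical counts.

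Differences were fitted in R 4.3.3 by edgeR 4.0.16 (filterByExpr, TMM, quasi-likelihood F test on 3 group means), with Benjamini-Hochberg adjustment over all genes tested. The study used DESeq2, run here (1.42.0) as an alternative. The script was tested on simulated data. A gene at 0.3 CPM has only a handful of reads at these depths. Log2 CPM used a prior count of 2. Figures were drawn with matplotlib 3.10.9 in Python 3.11.15.

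The named genes were Nr1h3, members of the 37 lists, the 20 largest rises and 20 largest falls among called genes with a mean log2 CPM above 1 and no overlap, the 10 called genes of highest mean level, and genes called within 5 Mb of Nr1h3. Apol7e was named after its value was seen. Some members of the lists are not reported here. The comparison, the members and the lists were chosen with earlier results of these data known. P-values measure the spread between livers of different mice. The study split its knockout mice into cohorts that the labels do not give, so cohort was not used here.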

Additional observations from a re-analysis of the deposited data

Results flagged for a closer look

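In 172 groups of 8 livers the value farthest from the others was compared with Dixon's critical value, which chance passes in about 1 of 20 groups, and 7 groups passed it. Among KO:WT livers, animal 5 stood high in the T cell list (0.0614 as mean log2 CPM, against -1.39 to -0.86 in the other livers). KO:WT animal 23 stood high in the list of stellate cells and fibroblasts (3.96, against 2.73 to 3.29) and low in Serpina3k (12.1 log2 CPM, against 12.9 to 13.6) and Mup3 (11.7, against 12.8 to 13.6). KO:WT animal 14 stood low in mt-Cytb (13.4 log2 CPM, with the others at 13.6). Among KO:HOM livers, animal 27 stood low in Stard4 (3.98 log2 CPM, against 5.13 to 6.17) and in Fabp1 (10.2, against 10.7 to 11.1).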

How the results depend on the processing

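The counts of called genes and the called genes named here kept their direction under the alternatives that were run, while some medians near 0 changed sign. For genes higher in KO:HOM livers (1520), an adjusted p under 0.01 gave 999 and a log2 fold change of at least 1 gave 834. For genes lower in KO:HOM livers (890), these limits gave 326 and 114, and library size alone 329. For genes differing between KO:HOM and KO:WT livers (2410), they gave 1325 and 948. For immune list genes higher and immune list genes lower, no alternative moved the count by over 1.5 times. For hepatocyte list genes lower (50), all 48 livers gave 31, an adjusted p under 0.01 gave 20 and the fold limit 22. For hepatocyte list genes higher (9), library size alone gave 14 and an adjusted p under 0.01 gave 5. For genes called with groups that do not overlap (372), leaving out the livers with over 9% of reads unmapped, chosen after seeing the data, gave 653, and fewer livers make this rule easier to pass. Fewer samples or a stricter limit lie in the alternatives' own construction; the cause of the other moves was not tested. DESeq2 called 1671 genes higher and 1054 lower, and without the 2 libraries under 10000000 reads these counts were 1604 and 612. Leaving out each liver in turn gave 1336 to 1832 genes higher, 560 to 984 lower, 1984 to 2816 in all, 381 to 583 without overlap, 91 to 107 immune genes higher, 6 to 6 lower, 8 to 10 hepatocyte genes higher, 33 to 55 lower, and an Nr1h3 change of -1.81 to -1.74. Leaving out KO:WT animal 33 or 34 gave 573 or 560 genes lower. Of 221 named genes called, 134 kept the call in all 26 alternatives, among them 84 immune list genes (80.8% of those called) and 23 of 59 hepatocyte list genes (39.0%). The median of all genes tested changed sign with library size alone (-0.02 to 0.09). The median of the complement list changed sign with library size alone (-0.09 to 0.01), and that of the bile acid list without the livers over 9% unmapped (-0.11 to 0.01). A term for sex could not be fitted, since Y-linked genes were counted and Xist was too low to test in these livers. No paired analysis was possible because the animal numbers of KO:HOM and KO:WT livers do not coincide. Counts near 0.3 CPM limit what was detectable among scarce genes.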

Other observations

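Genes encoded by the mitochondrial genome, grouped after their values were seen, were called lower in 3 of 13 (mt-Cytb, mt-Nd4 and mt-Nd6), against 6.23% of all genes tested, with a median log2 fold change of -0.12. mt-Cytb and mt-Nd4 lay above 1000 CPM, where 20.6% of genes were called lower, and mt-Nd6 at 100 to 1000 CPM, where 16.6% were. With library size alone as the scale the median of all genes moved by 0.107, so nothing is read from these mitochondrial falls. Protein-coding genes were called higher in 11.6% and lower in 6.56% of 12463 tested, and long noncoding RNAs in 4.69% and 4.87% of 1109.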
